A study of Sesamum indicum with 195 samples.

Results

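A set of 8 sesame root genes repeated their control levels over 4 pairs of hours a day apart. The pair with the highest mean was 8 and 32 h or 16 and 40 h. The 8 genes came from 18178 genes with a mean of at least 1 TPM (a transcript's share of its sample, corrected for gene length and scaled to a fixed total) among the 20271 genes of the deposited table. The members were chosen by the control values themselves. Levels were taken as log2(mean TPM of 3 replicates + 1), and the hours 24 h apart formed 4 pairs, 8/32, 16/40, 20/44 and 24/48 h. In each genotype both values of every pair had to differ by less than 0.8, the 4 pair means had to span at least 1.5, and the highest pair had to be 8/32 or 16/40 h. Everything about the control at these hours is therefore given as a description, and tests were made only on waterlogged and drained roots and on the controls at 4 and 12 h, which the rule did not use.

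The series held 195 root samples in 65 conditions of 3 replicates, each replicate being a root of 1 plant from another pot, all from flowering plants kept in a greenhouse. The genotypes compared in every phase were ZZM2541 (R2G), described as tolerant of waterlogging, and Ezhi No. 2 (EG), described as susceptible. Untreated control roots were sampled at 4, 8, 12, 16, 20, 24, 32, 40, 44 and 48 h (60 samples). Waterlogged roots were sampled every 2 h from 2 to 24 h and at 28, 32 and 36 h (90 samples), and roots drained after 36 h of waterlogging at 38, 40, 42, 44, 46 and 48 h (36 samples). A further 6 samples came from 0 h and 3 from EG plants at 48 h that the labels call wilting and the paper calls dead, as against the surviving plants of the drainage series. The clock hour of 0 h is not given in the sources used here, so 8 or 16 h is a time since the start and not a time of day. TPM keeps no depth. The paper gives a range of cleaned reads per sample, and the depth of each library was not used here. In bulk roots, fewer cells of a type and less RNA per cell cannot be told apart.

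Plants keep time with a circadian clock, a network of transcription factors that repress each other in turn through the day, and light, temperature and sugars from the shoot set its phase. Roots have this clock as well, and many root genes for water and nutrient transport, growth and metabolism follow a daily course. A daily course gives the same level at hours that lie a day apart, and another level in between. Either the clock or the daily changes of the surroundings can drive it. The rule picks genes by this pattern, and the pattern alone does not establish a daily course. Waterlogging cuts off the oxygen supply of roots, which then turn to fermentation and save energy, and draining brings oxygen back. The reference annotation matched all 20271 identifiers but pairs the 8 genes with no descriptive name, so no role is given to them here, and no clock, low-oxygen or root marker genes could be counted.

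Range and repetition together left few genes. A span of at least 1.5 in both genotypes was met by 513 genes, 231 of them highest at 8/32 or 16/40 h in both, and the limit on every pair by 12917. Both conditions held for 35 genes, of which 16 were highest at 20/44 or 24/48 h in both genotypes, 11 were highest in different parts of the day in EG and R2G, and 8 were the members. Just inside the limit on the span were LOC105165174, with 1.501 in its flatter genotype, and LOC105175260, with 1.53. Just outside were LOC105162932, with 1.46, and LOC105174378, with 1.45.

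The control libraries did not all resemble their own hour. Of 60 control libraries, 11 correlated best with the mean profile of another hour, 4 of them by more than 0.009 in Pearson's r. The profile of a library's own hour was the mean of its other 2 replicates, and that of another hour the mean of 3. The 4 libraries are named next. EG replicate 3 at 40 h was closest to 44 h (0.978, against 0.953 with its own hour). R2G replicate 3 at 24 h was closest to 20 h (0.961 against 0.948). EG replicate 3 at 16 h was closest to 24 h (0.977 against 0.967), and R2G replicate 1 at 24 h to 32 h (0.980 against 0.970). R2G replicate 2 at 24 h was also closest to 32 h (0.986 against 0.982), so none of the 3 libraries of that condition was closest to it. The own-hour profile of replicates 1 and 2 held replicate 3, so a divergent replicate 3 would lower their own-hour r as well. How many of the 3 libraries diverge was not tested. In R2G at 24 h, replicates 1, 2 and 3 of LOC105174258 stood at 14.98, 9.53 and 1.30 TPM and those of LOC105164696 at 80.3, 67.3 and 32.7 TPM. Such libraries weigh on the choice of members. Without R2G replicates 1 and 2 at 24 h the same rule found 47 genes, 42 of them highest at 8/32 h, and 6 of the 8 members were among them. Without replicate 3 of that condition it found 5 genes, all members, 4 of them highest at 16/40 h. Without EG replicate 3 at 40 h it found 19 genes, including 6 of the 8, and without EG replicate 3 at 16 h it found 7, including 5. Chosen on replicates 1 and 2, 1 and 3, or 2 and 3 alone, 10, 7 and 2 genes passed, of which 1, 4 and 0 were members. In the replicate left out of each of these choices, the difference of highest and lowest pair was above 0 in both genotypes for 10 of 10, 7 of 7 and 2 of 2 genes, with medians of 1.27, 1.66 and 1.76, although only 0, 2 and 1 of them reached 1.5 in both. The 16/40 h class in particular depended on the choice. None of the genes chosen on replicates 1 and 3, on replicates 2 and 3, or after median-ratio scaling of the samples (3 genes) was highest at 16/40 h, and after scaling the highest EG pair of all 4 members of that class was 20/44 or 24/48 h. The 8 genes are thus those that this rule and these libraries select, and not a full list of daily genes.

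The members fell into classes of equal size, 4 genes with the highest pair at 8/32 h and 4 with the highest pair at 16/40 h. All 8 are annotated as protein coding, on 7 linkage groups of genome v1.0. In the 8/32 h class were LOC105174258 (linkage group 11, 13017080 to 13019831), LOC105166991 (linkage group 7, 10438534 to 10444210), LOC105164696 (linkage group 6, 16771790 to 16777015) and LOC105165174 (linkage group 1, 12622996 to 12628076). In the 16/40 h class were LOC105161197 (linkage group 4, 16074252 to 16075066), LOC105173678 (linkage group 11, 9175077 to 9175902), LOC105175260 (linkage group 12, 2834540 to 2836943) and LOC105177327 (linkage group 15, 1380611 to 1381347). The genes of the 16/40 h class were short, spanning 737 to 2404 bases, and those of the 8/32 h class spanned 2752 to 5677 bases, beside a median of 3474 bases over all matched genes. With 4 genes a class, these spans were not tested.

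The 8/32 h genes had 1 high pair and were lower at all other hours of the rule. LOC105174258 had the widest daily span, 2.68 in EG and 2.25 in R2G on the log2 scale. Its EG controls stood at 21.9, 19.7 and 8.98 TPM at 8 h and at 14.4, 8.12 and 20.3 TPM at 32 h, and fell to 1.92, 1.74 and 1.64 TPM at 24 h and 1.10, 1.93 and 1.19 TPM at 48 h. No sample of the peak hours overlapped a sample of 24 or 48 h. LOC105166991, with spans of 1.72 and 2.13, reached 10.4, 14.7 and 16.1 TPM at 32 h in EG and 16.0, 10.5 and 13.7 TPM in R2G. LOC105164696 was the most abundant member, with a mean of 55.2 TPM over all samples and 81.5, 122 and 108 TPM in EG at 32 h. Its EG level fell to 25.9, 21.0 and 22.6 TPM at 24 h, below every sample of 8 and 32 h. LOC105165174 had the narrowest span of this class, 1.54 and 1.501. All 4 were lowest at 24/48 h in EG and at 20/44 h in R2G, and the R2G value of 24/48 h holds the divergent libraries described above. The highest pair exceeded the next by 0.78 to 1.26 on the log2 scale.

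The 16/40 h genes were lowest at 8/32 h and on a plateau at the other hours of the rule. The controls at 4 and 12 h, outside the rule, were also low in EG, where the lowest control mean of LOC105161197 was 2.61 TPM at 4 h and that of LOC105175260 was 8.00 TPM at 12 h. LOC105161197 stood at 23.4, 30.8 and 12.6 TPM at 16 h in EG, at 24.2, 22.3 and 11.6 TPM at 20 h and at 19.4, 14.4 and 12.6 TPM at 24 h, against 3.77, 3.95 and 3.21 TPM at 8 h and 3.85, 3.90 and 4.10 TPM at 32 h. The plateau samples overlapped each other, and the trough samples lay below all of them. LOC105175260, the most abundant of the class, stood at 39.5, 40.7 and 43.3 TPM at 16 h in R2G and at 11.9, 7.29 and 7.22 TPM at 8 h. LOC105173678 and LOC105177327 had the lowest levels, with means of 1.76 and 1.37 TPM over all samples. In this class the pair of 16/40 h exceeded the next pair by only 0.02 to 0.07 on the log2 scale in EG and by 0.03 to 0.44 in R2G. Single hours did not always follow the pair. In R2G the highest control mean of LOC105177327 was 5.86 TPM at 48 h, against 4.96 TPM at 40 h, and that of LOC105175260 was 48.0 TPM at 44 h. Within the plateau the hour of the maximum is not separated by these samples.

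**Figure D1:**
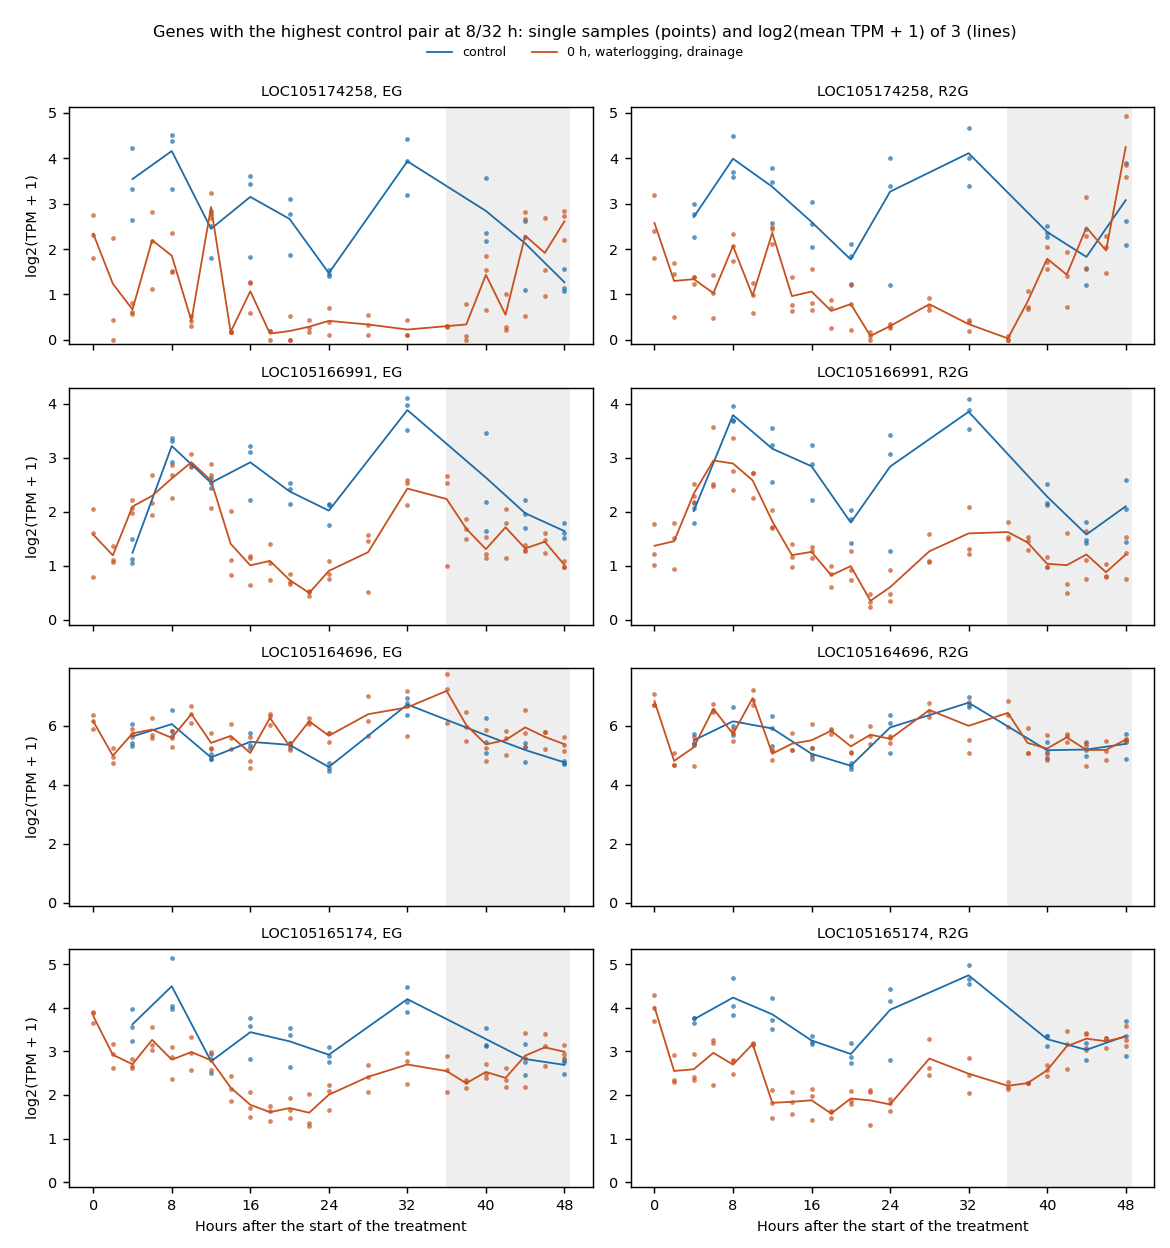
Levels of the 4 genes with the highest control pair at 8/32 h, as log2(TPM + 1) against hours after the start, in EG (left) and R2G (right). Points are single samples and lines join log2(mean TPM + 1) of 3 replicates, blue for control and orange for 0 h, waterlogging and drainage (grey area). LOC105174258 was below its control for most of waterlogging, whereas LOC105164696 ranged from 22.8 to 212 TPM in waterlogging and from 21.0 to 123 TPM in control.

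Controls at 4 and 12 h, which the rule did not use, extended these courses. LOC105166991 stood at 1.83, 1.19 and 1.06 TPM at 4 h and at 5.17, 4.41 and 4.80 TPM at 12 h in EG, and at 3.17, 2.44 and 3.47 TPM and 8.37, 10.7 and 4.86 TPM in R2G. In both genotypes all samples of 12 h lay above those of 4 h, and the gene was higher at 12 h by 1.21 on the log2 scale (standard error 0.22, limma adjusted p = 1.5e-05). It was the only member of 8 called between these hours in either direction, where a call means an adjusted p below 0.05 and a log2 difference of at least 1, and 2.93% of all genes were called. LOC105161197 was higher at 12 h by 0.81 (adjusted p = 0.0056), short of that difference, but reached 1.03 and a call without replicate 2. Its R2G controls rose from 2.89, 8.03 and 2.94 TPM to 13.6, 10.2 and 7.26 TPM, a log2 difference of 1.10 (adjusted p = 0.013), while in EG the difference was 0.53 (adjusted p = 0.26). A difference between EG and R2G in the change from 4 to 12 h, added after the values had been seen, was called by limma for none of the 8 members, although 4 of them had an unadjusted p below 0.05, and 3.95% of all genes were called. The largest such difference, of LOC105174258, was -1.62 (standard error 0.64, adjusted p = 0.092), with EG falling from 17.6, 5.27 and 9.03 TPM at 4 h to 6.14, 2.51 and 4.69 TPM at 12 h. The samples of 0 h, a day before 24 h, were also outside the rule and did not always repeat it. LOC105164696 had a mean of 69.7 TPM at 0 h in EG, against controls of 23.2 TPM at 24 h and 25.9 TPM at 48 h. In R2G it had 112 TPM, against 60.1 and 40.6 TPM. LOC105175260 in R2G had 78.7 TPM, against 27.8 and 38.7 TPM. LOC105165174 in EG had 13.0 TPM, against 6.57 and 5.44 TPM, and in R2G 15.2 TPM, against 14.5 and 9.20 TPM. LOC105174258 in EG had 4.06 TPM, against 1.77 and 1.41 TPM. Of the 8/32 h class in EG only LOC105166991 was closer, at 1.98 TPM against 3.05 and 2.12 TPM. These differences were not tested.

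The 16/40 h class was lower in waterlogged roots within hours. At 4 and 12 h, with both genotypes together (12 against 12 samples), all 4 genes of this class fell, and 6 of the 8 members in all were lower than the control by limma, beside 12.0% of all genes. By genotype, 4 of 4 genes of the class were called lower in R2G and 2 of 4 in EG. At 4 h alone 4 of 4 were called in R2G and none in EG. In EG 3 of the 4 had a limma adjusted p below 0.05 and fell short only of the size needed for a call. These were LOC105175260 at -0.99 (adjusted p = 0.0059), LOC105161197 at -0.83 (0.022) and LOC105177327 at -0.60 (0.026). LOC105173678 was at -0.42 (adjusted p = 0.27). At 12 h 4 of 4 were called in each genotype. With both genotypes and both hours together, none of the 8 was higher, at an unadjusted p below 0.05 or at the adjusted one, beside 1.31% of all genes. LOC105161197 stood at 0.56, 1.23 and 1.29 TPM in waterlogged EG at 4 h and 0.305, 0.0531 and 0.56 TPM at 12 h, where its controls stood at 3.49, 2.27 and 2.07 TPM and 3.75, 3.37 and 5.51 TPM. In R2G it stood at 0.372, 0.519 and 0.369 TPM at 4 h and at 0.0601, 0.182 and 0.111 TPM at 12 h, against 2.89, 8.03 and 2.94 TPM and 13.6, 10.2 and 7.26 TPM. No waterlogged sample overlapped the control of its hour and genotype, and the log2 difference was -2.00 (standard error 0.16, adjusted p = 3.0e-22).

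The other genes of the class fell by similar amounts on this scale, which understates the change of genes below a few TPM. LOC105175260 was at 3.36 ± 1.16 TPM (SD, n = 12) in waterlogging and at 15.9 ± 8.96 TPM (SD, n = 12) in control, a log2 difference of -1.81 (standard error 0.16, adjusted p = 1.2e-19). LOC105173678 was at 0.236 ± 0.255 TPM and 2.48 ± 1.88 TPM (SD, n = 12 each), with a difference of -1.37, and LOC105177327 at 0.209 ± 0.298 TPM and 2.11 ± 1.21 TPM, with -1.30. These SDs span both genotypes and hours. Of the 16 comparisons of this class at 4 and 12 h (4 genes, 2 genotypes, 2 hours), all 3 waterlogged samples lay below all 3 controls in 15 and overlapped them in 1. The median log2 difference of all genes was -0.23 in this contrast and -0.02 with each sample divided by the median of its gene-wise ratios to an average sample, and all 4 genes remained called after that scaling.

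The 8/32 h class was divided at the same hours. LOC105174258 fell by 1.12 on the log2 scale (standard error 0.23, adjusted p = 5.8e-06) and LOC105165174 by 1.01 (standard error 0.14, adjusted p = 6.8e-11). After median-ratio scaling these differences were -0.94 and -0.80, below the size needed for a call. Without replicate 1 LOC105174258 was at -0.89, and without replicate 3 LOC105165174 was at -0.97, likewise not called. LOC105164696, with -0.12 (adjusted p = 0.52), and LOC105166991, with -0.02 (adjusted p = 0.90), did not pass the test. In both, the genotypes had opposite signs, 0.31 in EG and -0.54 in R2G for LOC105164696 (adjusted p of the difference 0.026) and 0.44 and -0.48 for LOC105166991 (adjusted p of the difference 0.017), with neither difference large enough for a call. By hour, LOC105166991 was called lower in R2G at 12 h (-1.29, adjusted p = 0.00025) and had a difference of 0.87 in EG at 4 h (adjusted p = 0.015). For LOC105174258 the values of both hours lay apart, a gap that was not tested. In EG at 4 h the waterlogged samples stood at 0.763, 0.519 and 0.484 TPM and the controls at 17.6, 5.27 and 9.03 TPM, a difference of -2.73 (adjusted p = 1.3e-07), but at 12 h they stood at 5.85, 5.47 and 8.47 TPM against 6.14, 2.51 and 4.69 TPM, a difference of 0.52 (adjusted p = 0.38).

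At the hours that chose the members, the comparison with control shares the controls of the rule and is given without a test. All 40 comparisons of the 16/40 h class at 8, 16, 20, 24 and 32 h had the 3 waterlogged samples below the 3 controls, with the waterlogged mean at 0 to 37.1% of the control mean. Of the 40 comparisons of the 8/32 h class, 30 had the waterlogged samples below, 8 overlapped and 2 had them above. The median log2 difference was -2.52 in the 16/40 h class and -1.47 in the 8/32 h class.

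**Figure D2:**
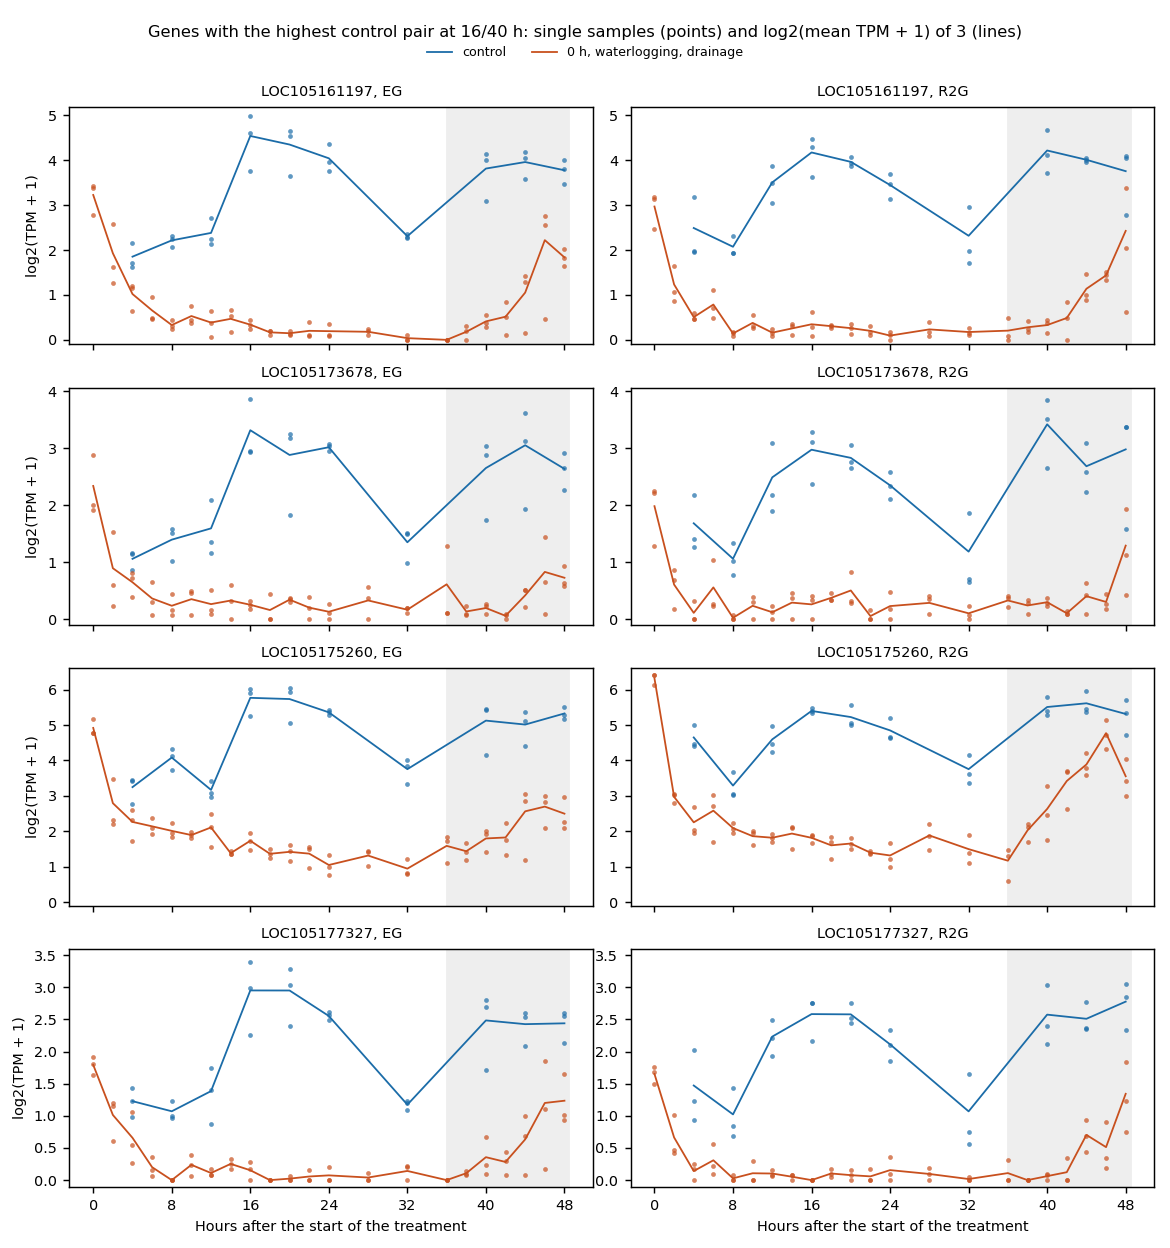
Levels of the 4 genes with the highest control pair at 16/40 h, as log2(TPM + 1) against hours after the start, in EG (left) and R2G (right). Points are single samples and lines join log2(mean TPM + 1) of 3 replicates, blue for control and orange for 0 h, waterlogging and drainage (grey area). The orange lines fall from 0 h to near the floor by 8 h, except in LOC105175260, and are higher again at 48 h.

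Over the 36 h of waterlogging the genes of the 16/40 h class stayed low. LOC105161197 had 5.85, 9.80 and 9.42 TPM at 0 h in EG, 4.95, 2.07 and 1.40 TPM at 2 h, and was listed at 0 in all 3 samples at 36 h. Over the 45 waterlogged samples of each genotype its lowest, median and highest values were 0, 0.190 and 4.95 TPM in EG and 0, 0.207 and 2.14 TPM in R2G, and over 30 controls each they were 2.07, 11.3 and 30.8 TPM and 2.25, 11.6 and 24.3 TPM. These ranges, and those of LOC105175260 below, take waterlogged and control samples from different sets of hours, so hour and treatment are mixed in them. LOC105177327 was listed at 0 in 37 of 90 waterlogged samples and LOC105173678 in 18, while neither was at 0 in any of 60 controls. LOC105175260 was never at 0, and its waterlogged samples ranged from 0.509 to 10.2 TPM with a median of 2.29 TPM, against 5.89 to 64.7 TPM with a median of 31.6 TPM in control. Before the treatment this gene differed between genotypes, with 26.2, 26.4 and 35.2 TPM at 0 h in EG and 83.6, 69.0 and 83.6 TPM in R2G, groups that did not overlap, and this difference was not tested. By 2 h it had dropped to 10.2, 3.62 and 3.96 TPM in EG and to 6.00, 7.37 and 7.20 TPM in R2G.

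Whether a daily course remained in waterlogging was asked by the same hours of the day in waterlogged roots alone. For the 8/32 h class, the mean of 8 and 32 h was compared with that of 20 and 24 h. LOC105166991 stood at 5.37, 3.76 and 6.24 TPM at 8 h and 5.03, 4.75 and 3.37 TPM at 32 h in waterlogged EG, against 0.573, 0.807 and 0.616 TPM at 20 h and 0.788, 0.689 and 1.13 TPM at 24 h. In R2G it stood at 9.26, 4.31 and 5.71 TPM and at 1.48, 1.34 and 3.27 TPM, against 1.42, 0.667 and 0.881 TPM and 0.888, 0.278 and 0.386 TPM. In EG all 6 samples of 8 and 32 h lay above all 6 of 20 and 24 h, and in R2G all but 1 of the 6 did. The gene was higher at 8 and 32 h by 1.55 on the log2 scale (standard error 0.16, adjusted p = 3.4e-16), by 1.69 in EG and 1.41 in R2G. It was the 1 member of 8 called higher in this contrast, beside 4.99% of all genes.

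The other 8/32 h genes had smaller differences in the same direction. LOC105165174 stood at 5.39 ± 1.33 TPM at 8 and 32 h and at 2.62 ± 0.56 TPM at 20 and 24 h (SD, n = 12 each), a log2 difference of 0.81 (standard error 0.14, adjusted p = 1.2e-07). LOC105174258 had a difference of 0.70 (standard error 0.23, adjusted p = 0.0049) and LOC105164696 one of 0.45 (standard error 0.16, adjusted p = 0.0097). All were below the size needed for a call, and the median of all genes was 0.12. For LOC105164696 in EG only 32 h of the pair stood out, as the mean at 8 h lay between those of 20 and 24 h. The highest waterlogged EG mean of this gene was at 36 h, outside the pair. In R2G its means at 8 and 32 h were both above those at 20 and 24 h. For LOC105174258 both hours of the pair did not go together, as it stood at 4.14, 1.88 and 1.82 TPM at 8 h in EG and at 0.0756, 0.354 and 0.0803 TPM at 32 h, the latter within its range at 20 and 24 h. A difference between EG and R2G in this contrast was called for none of the 8 members, with 0 at an unadjusted p below 0.05, beside 0.484% of all genes called by limma.

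Among the 16/40 h genes no difference between waterlogged hours of the day was called. Only 16 h of their peak pair falls into this phase, and its comparison with 20 and 24 h called none of the 8 members in either direction, beside 0.462% of all genes, with 2 members of 8 at an unadjusted p below 0.05. In control, too, 16/40 and 20/44 h differed little. Over 8, 16, 20 and 24 h, the highest and lowest waterlogged means of LOC105161197 differed by 0.19 in EG and 0.25 in R2G on the log2 scale, where the controls differed by 2.32 and 2.10. The medians of the class were 0.20 and 0.37, below those of all genes, 0.56 and 0.61. For the 3 genes with levels near 0 a small span is all that this scale can show. LOC105175260, never at 0, spanned 0.96 in EG and 0.77 in R2G, above the medians of all genes, and was highest at 8 h, a low hour of its control. In EG it stood at 2.57, 3.70 and 2.85 TPM at 8 h and at 0.710, 1.52 and 0.991 TPM at 24 h of waterlogging, and over the 4 hours its adjusted p was 0.0499 in EG and 0.16 in R2G by limma, with the span short of a call.

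The median span of the 8/32 h class over the same 4 hours was wider, at 1.38 in EG and 1.34 in R2G. LOC105164696 did not share this, with 0.58 in EG and 0.42 in R2G, beside 0.56 and 0.61 for the median of all genes. LOC105166991 spanned 1.88 in EG and 2.29 in R2G in waterlogging, and 1.20 and 1.99 in control. The waterlogged maximum of these 4 hours was at 8 h for 3 of 4 genes in EG and 4 of 4 in R2G. This hour was also the maximum for 47.2% and 53.9% of all genes, so the position of the maximum alone does not set the class apart. A test of any difference among the 4 waterlogged hours called 3 members in EG, LOC105174258, LOC105166991 and LOC105165174, beside 14.9% of all genes. In R2G it called 2, LOC105174258 and LOC105166991, beside 20.6% of all genes, and 1 when replicate 3 was left out. Early and late waterlogging hours differ in the time without oxygen as well as in the hour of the day, and these cannot be told apart within 24 h.

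**Figure D3:**
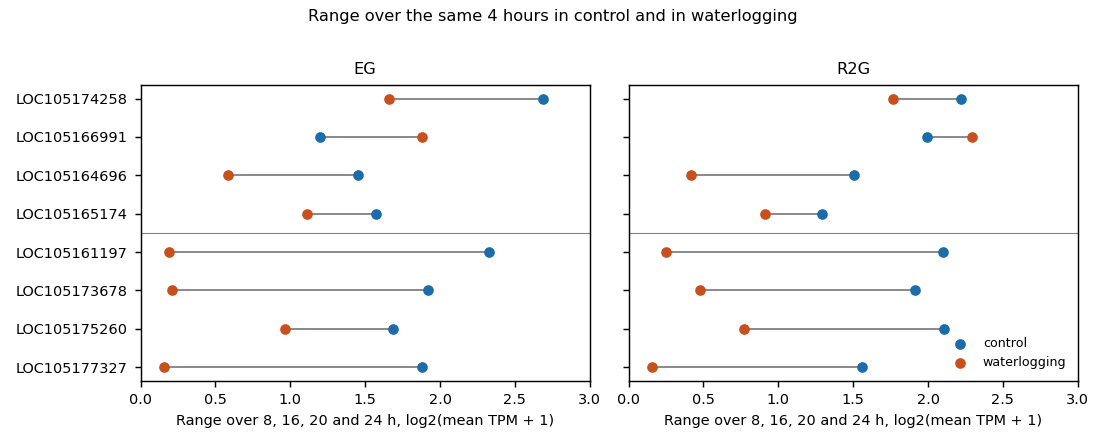
Difference between the highest and lowest of the means at 8, 16, 20 and 24 h, on the log2(mean TPM + 1) scale, for each member in control (blue) and waterlogging (orange), in EG (left) and R2G (right). The line parts the 8/32 h class (top) from the 16/40 h class (bottom). The span was smaller in waterlogging than in control for all members but LOC105166991.

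The denser sampling of waterlogging showed a course that the controls, sampled every 4 h at most, could not. LOC105164696 went up and down from 1 sampling hour to the next. In R2G it stood at 104, 90.4 and 86.8 TPM at 6 h, at 58.4, 53.0 and 43.2 TPM at 8 h, at 145, 116 and 101 TPM at 10 h and at 27.3, 34.0 and 34.8 TPM at 12 h. Samples of neighbouring hours did not overlap. Over 8, 12, 16, 20 and 24 h its mean was 41.8 TPM in EG and 42.4 TPM in R2G, and over 6, 10, 14, 18 and 22 h it was 66.9 and 72.3 TPM. The first set holds hours at which controls were also sampled, and the second hours without controls. The sampling scheme and the hour cannot be told apart here. LOC105174258 had the higher mean in the first set of hours, 2.16 and 1.87 TPM, against 0.873 and 0.714 TPM in the second. Within the first set its means ran from 6.60 TPM at 12 h to 0.143 TPM at 20 h in EG. In R2G they ran from 4.12 TPM at 12 h to 0.233 TPM at 24 h. For this gene the set means alone do not show an alternation from hour to hour. The alternation of LOC105164696 was noticed in the data, is described without a test, and its cause was not tested.

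No difference between EG and R2G in the members' level over the 15 hours of waterlogging was called. The count was 0 of 8 in either direction by limma (45 against 45 samples), with 1 at an unadjusted p below 0.05, beside 0.996% of all genes. The log2 differences lay between -0.16 (LOC105175260, standard error 0.08) and 0.12 (LOC105165174, standard error 0.07). The fall against the control at 4 and 12 h was another matter. It was larger in R2G than in EG for 4 members, LOC105175260, LOC105161197, LOC105165174 and LOC105173678, beside 8.51% of all genes called in this direction. This comparison was added after the values had been seen. LOC105175260 fell by 1.05 in EG and by 2.58 in R2G (difference 1.53, standard error 0.32, adjusted p = 9.2e-05). Its waterlogged samples were alike, 3.57 ± 1.25 TPM in EG and 3.15 ± 1.13 TPM in R2G (SD, n = 6 each), and its controls were not, 8.25 ± 1.74 TPM in EG and 23.6 ± 5.60 TPM in R2G. Without replicate 2 the difference was called for 2 of the 4 members, with LOC105161197 at 0.96 and LOC105173678 at 0.71, and after median-ratio scaling LOC105173678 was at 0.96 and not called.

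After draining some members rose. Drained roots at 40, 44 and 48 h were compared with waterlogged roots at 16, 20 and 24 h, the same hours of the day before (18 against 18 samples). Of the 8 members 3 were called higher, LOC105174258, LOC105175260 and LOC105165174, beside 20.1% of all genes. LOC105161197 at 0.88 (limma adjusted p = 1.2e-09) and LOC105177327 at 0.61 (6.5e-09) fell short only of the size needed for a call. LOC105166991 at 0.26, LOC105173678 at 0.25 and LOC105164696 at 0.02 had limma adjusted p above 0.05. LOC105174258 stood at 29.6, 13.4 and 10.9 TPM at 48 h in drained R2G and at 0.190, 0.278 and 0.232 TPM at 24 h of waterlogging, and at 5.60, 6.17 and 3.56 TPM and 0.315, 0.620 and 0.0708 TPM in EG. Over all 3 hours it rose by 1.75 on the log2 scale (standard error 0.18, adjusted p = 3.6e-16). LOC105175260 rose by 1.25 (standard error 0.13, adjusted p = 2.7e-16), by 0.81 in EG and by 1.70 in R2G, a gap that was not tested. LOC105165174 rose by 1.09 (standard error 0.11, adjusted p = 7.3e-17). The median of all genes was 0.40 in this contrast and 0.03 after median-ratio scaling, under which LOC105174258 alone of the 8 stayed called, while LOC105175260 was at 0.93 and LOC105165174 at 0.74.

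The return was late and incomplete in the 16/40 h class. LOC105161197 stood at 0.155, 0 and 0.242 TPM in EG at 38 h and at 2.13, 2.54 and 3.04 TPM at 48 h, where its controls stood at 13.0, 14.98 and 10.1 TPM. In R2G it stood at 9.45, 3.13 and 0.544 TPM at 48 h, with the samples far apart, against 5.88, 15.7 and 16.0 TPM. LOC105175260 reached 34.6, 25.4 and 18.9 TPM at 46 h in R2G and 7.003, 3.31 and 6.17 TPM in EG, groups that did not overlap. In 22 of 24 comparisons of this class at 40, 44 and 48 h the drained samples lay below all controls, and the drained means were at 0.884 to 35.0% of the control means. Of the 24 comparisons of the 8/32 h class, 13 overlapped, 8 lay below and 3 above. LOC105174258 in EG at 48 h, with 5.60, 6.17 and 3.56 TPM against controls of 1.10, 1.93 and 1.19 TPM, had the highest drained mean of this class relative to its control, at 363%. LOC105166991 ranged from 0.401 to 3.15 TPM over 36 drained samples, with a median of 1.35 TPM. In EG its means at 40, 44 and 48 h were 1.47, 1.49 and 1.02 TPM, against controls of 5.19, 2.92 and 2.12 TPM. All drained EG samples of these hours lay below their controls. In R2G its means were 1.05, 1.31 and 1.31 TPM, against 3.85, 1.98 and 3.28 TPM, with overlap at 44 and 48 h. The controls of these hours chose the members, so no test is given.

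At 40 h, which the 16/40 h class would have as a high hour, drained roots were compared with those at 44 and 48 h (6 against 12 samples). Of the 8 members 2 were lower at 40 h, LOC105174258 by 1.20 on the log2 scale (standard error 0.28, adjusted p = 0.0006) and LOC105161197 by 1.11 (standard error 0.20, adjusted p = 7.7e-06), beside 2.25% of all genes. Without replicate 1 LOC105161197 was at -0.99 and not called. The remaining 16/40 h genes had differences of -0.42 to -0.90, so no gene of the class was higher at 40 h in drainage. In control, 40, 44 and 48 h lay on the same plateau of this class. The comparison therefore cannot decide whether its daily course was kept. The hour since draining and the hour of the day cannot be told apart here.

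**Figure D4:**
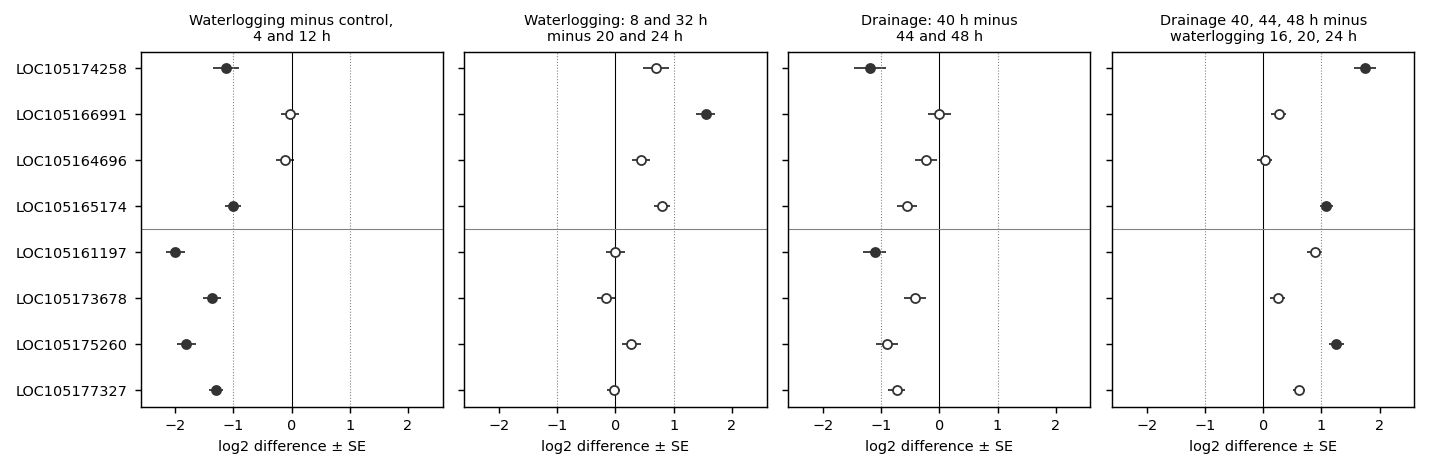
Log2 differences with standard errors from limma for the 8 members in 4 contrasts named above each panel. Filled circles were called (adjusted p below 0.05 over all genes and a difference of at least 1, dotted lines), open circles were not. The line parts the 8/32 h class (top) from the 16/40 h class (bottom), whose 4 genes were all called lower in waterlogging at 4 and 12 h.

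The EG plants at 48 h called wilting in the labels and dead in the paper had lower levels of 2 of the 8 members than the surviving EG plants of that hour, beside 2.67% of all genes (3 against 3 samples). LOC105174258 stood at 2.07, 0.203 and 0.452 TPM in these plants and at 5.60, 6.17 and 3.56 TPM in the survivors (log2 difference -1.78, limma adjusted p = 0.0037). LOC105161197 stood at 1.41, 0.0677 and 0.323 TPM and at 2.13, 2.54 and 3.04 TPM (log2 difference -1.24, limma adjusted p = 0.0045). Neither gene had overlapping samples between the groups. The calls rested on single libraries and on the spread shared by all conditions. Without replicate 2 or replicate 3 none of the 8 was called, without replicate 1 there were 5, and with only the 6 compared samples in the model there were 0.

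Members of a class followed each other in control, as the rule requires of their hours. Over the 60 control samples, Pearson's r on log2(TPM + 1) between genes of the 16/40 h class had a median of 0.92 and between those of the 8/32 h class one of 0.77, with a median of -0.46 between the classes. Over the 90 waterlogged samples the medians were 0.56, 0.33 and 0.10. The points share libraries, hours and genotypes, so these values are descriptions only. Within the 8/32 h class, values in waterlogging ranged from -0.32 to 0.70.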

How the data were processed

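Root RNA was sequenced in 195 samples. As the paper's methods and the submitters' processing notes state, the authors cleaned the reads with FastQC and Trimmomatic 0.32, mapped them with STAR to sesame genome v1.0, assigned unique matches to genes by featureCounts, and the deposited values are TPM, without counts. All columns matched a sample by name. Members came from the rule in the report, and the members, contrasts and lists were chosen with earlier results of these data known.

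Tests used limma 3.58.1 in R 4.3.3 (eBayes with a trend) on log2(TPM + 1), pseudocount 1, in 1 model with 65 conditions, for the 18178 genes whose mean TPM reached 1, with Benjamini-Hochberg adjustment over all of them. Figures and summaries used Python 3.11.15, numpy 2.4.6, pandas 2.3.3 and matplotlib 3.10.9. The tests were checked on simulated data. The naming rule, up to 5 members per class by control range, took in all 8. Alternatives were a pseudocount of 0.1, no filter, median-ratio scaling, a replicate block, leaving out 1 replicate at a time, a model of the compared samples only, and other choices of members. Coordinates are those of the v1.0 annotation, counted from 1. Sequences were not used here.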

Additional observations from a re-analysis of the deposited data

Results flagged for a closer look

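The difference between EG and R2G in the response to waterlogging at 4 and 12 h was called for 4 members, each with a larger fall in R2G. On the log2 scale it was 1.53 (standard error 0.32, limma adjusted p = 9.2e-05) for LOC105175260, 1.17 (standard error 0.32, adjusted p = 0.0028) for LOC105161197, 1.16 (standard error 0.27, adjusted p = 0.00044) for LOC105165174 and 1.05 (standard error 0.32, adjusted p = 0.0068) for LOC105173678. The test was added after the values had been seen. For each of these genes the R2G controls at 4 and 12 h had the higher mean, 7.49 ± 4.16 TPM against 3.41 ± 1.23 TPM in EG for LOC105161197, 12.8 ± 2.51 TPM against 8.55 ± 3.65 TPM for LOC105165174 and 3.41 ± 2.22 TPM against 1.55 ± 0.88 TPM for LOC105173678 (SD, n = 6 each). The part of the control level in the difference was not tested.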

How the results depend on the processing

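Of 88 results of single members, 23 had another sign under some setting, none of them called under any, and no called difference changed sign. Counts of called members stayed within 1.5 times their value in 145 results by setting and moved further in 63. A pseudocount of 0.1 gave 2 for 8/32 h and 1 for 16 h in waterlogging, 5 for 40 h in drainage and 5 for drainage against waterlogging. Median-ratio scaling gave 1 for drainage against waterlogging, and only the compared samples gave 0 for wilting. Leaving out a replicate gave 1 to 2 for 40 h in drainage, 0 to 5 for wilting, 1 to 2 for 12 against 4 h, 2 to 4 for the EG minus R2G response and 1 to 2 for time in R2G. The replicate block, with 6 members lower at 4 and 12 h of waterlogging, changed no count. Deviations from the condition means correlated at 0.015 on average between samples of 1 number and at -0.0076 between other samples, so the numbers were not taken as pairs.

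Other choices of members change the lists themselves. In the order 8/32 h in waterlogging, 40 h in drainage, waterlogging against control, drainage against waterlogging, 12 against 4 h, 8/32 h by genotype, wilting, response by genotype, and time in EG and R2G, the counts that moved were as follows. Members from replicates 2 and 3 (2 genes) gave 0 for 40 h, control, drainage, 12 against 4 h, wilting, response by genotype and time in R2G, and 1 for 8/32 h by genotype and for time in EG. Those from replicates 1 and 3 (7 genes) gave 4 for the first, 1 for 40 h, 2 against control, 1 for 8/32 h by genotype, 1 for wilting, 1 for response by genotype, and 5 and 4 for time. Those from replicates 1 and 2 (10 genes) gave 0 for the first, 2 for 12 against 4 h, 5 for wilting and 0 for time in EG. After scaling (3 genes, all highest at 8/32 h) 40 h, control, drainage and wilting gave 1 each and the response by genotype 0. Without the 2 R2G samples of 24 h (47 genes), chosen after seeing the data, the counts were 36 for the first, 11 for drainage, 1 for EG against R2G in waterlogging, 4 for 8/32 h by genotype, 6 for wilting, 21 for the response, and 36 and 29 for time. Without the EG sample of 40 h (19 genes), also chosen after seeing the data, they were 2 for the first, 5 for 40 h, 14 against control, 8 for drainage, 4 for wilting, 8 for the response and 4 for time in R2G. Without R2G replicate 3 at 24 h (5 genes), likewise, they were 0 for the first and for 12 against 4 h and 1 for time in EG and in R2G, and without EG replicate 3 at 16 h (7 genes) 2 for the first, 1 for 40 h, 2 for 12 against 4 h, 1 for wilting and 2 for the response.

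The cause of these moves was not tested, beyond the number of genes on each list. TPM hold no depth, and 79 of 1560 member values were 0, so differences among the lowest levels were not detectable. With 3 replicates an hour, pair differences below 0.8 depend on single libraries.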
